A study of Mus musculus with 24 samples.

Results

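The change in gene expression that accompanies positive selection was compared between thymocytes of the B10 and NOD strains. The comparison is an interaction: for each probeset, the log2 signal of S+ minus PreS cells was taken in each strain, and the B10 change was subtracted from the NOD change. All S+ and PreS arrays were used, 18 of the 24 arrays of the series, with both kinds of PreS array of a strain merged (6 PreS and 3 S+ arrays in each strain). A positive difference means that the change from PreS to S+ was more upward, or less downward, in NOD.

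B10 stands for C57BL10.H2k mice and NOD for NOD.H2k mice, which share the H2k haplotype at the major histocompatibility locus, and NOD is the strain prone to autoimmune diabetes. Female mice of 6 to 8 weeks were used, and all of them carried the 3A9 TCR transgene, whose receptor recognises hen egg lysozyme bound to I-Ak and is detected by the 1G12 antibody. PreS cells were pre-selection CD4+CD8+ thymocytes without CD69 or 1G12 staining, from TCR mice in 3 arrays and from TCR insHEL mice in 3 arrays of each strain, where insHEL is hen egg lysozyme driven by the insulin promoter. S+ cells were CD4+CD8low thymocytes with CD69 and 1G12 staining, from TCR mice without insHEL. Cells were stained in the presence of actinomycin D and α-amanitin, and each array measured an independent pool of sorted cells, so that the spread between arrays is one between pools and not between single mice. The transgene limits both strains to responses of 1 receptor specificity.

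Positive selection is the step at which a double positive thymocyte that recognises self-MHC weakly is kept alive, switches off its rearrangement genes and starts to mature into a single positive cell. Double positive cells arise from a burst of division of their precursors, and leave the cell cycle as they mature. The genes of mitosis are transcribed only in the late part of that cycle, and many of their promoters hold a CCAAT box together with a cell cycle homology region, the latter being a site through which they are silenced in resting cells.

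Signals were those of the Affymetrix 430A array, on a linear scale with the trimmed mean of each array set to 150, and a probeset was kept when its signal reached 32 in all replicates of at least 1 of the 8 conditions of the series (12838 of 22626 probesets, 7831 genes). Of the thymocyte markers listed (Cd3e, Cd3d, Thy1 and Cd2 among them), 8 of 10 were on the array and all of these were kept, with summed signals of 9934.9 to 18014.8 over the 18 arrays. The lowest sums were those of NOD S+ replicates 1 and 2, 9934.9 and 10126.2, with 15915.4 on replicate 3. In B10 S+ the sums ran from 12245.3 to 15429.3. Cd69, which served in the sort, was not analysed here. Of the NOD S+ arrays, replicate 3 stood apart: its mean correlation with the other 2 was 0.845 and its weight in a fit with array weights was 0.268. The ratio of the 3' to the 5' probeset of Gapdh, a measure of RNA length after amplification, was 2.31 to 7.81 in B10 PreS and 2.99 to 28.9 in NOD PreS. In B10 S+ it was 29.4, 3.98 and 3.15 on replicates 1, 2 and 3, and in NOD S+ 57.2, 40.9 and 3.63.

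Across the 12838 probesets the changes of B10 and NOD had a Pearson correlation of 0.718 and a Spearman correlation of 0.684, given as a description, since probesets are not independent replicates and the changes come from the same hybridization series. The median difference between the strains' changes was -0.01 on the log2 scale, with a median standard error of 0.43. From PreS to S+, 627 probesets rose (4.88% of those tested) and 930 fell (7.24%) in B10, 12.1% in all, at a limma adjusted p under 0.05. In NOD 952 rose (7.42%) and 1373 fell (10.7%), 18.1% in all. With the MAS5 scaling alone the split in NOD was 1299 to 1028.

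The strain difference in change itself was called for 23 probesets, or 0.179% of those tested, of 23 genes. Of these, 21 were higher in NOD (0.164%) and 2 were lower (0.0156%). At an unadjusted p under 0.05 there were 932 probesets (7.26%), 515 higher (4.01%) and 417 lower (3.25%). Of the 21 called higher, 19 fell in B10, and in 16 of the 21 both strains' changes were downward and the smaller one was that of NOD. Of the 21, 4 were in the G2/M and mitosis list and 2, the pre-TCR chain Ptcra and the chemokine receptor Cxcr4, in the list of pre-selection genes, and Ccl5 and Dock9 rose in NOD. The 2 called lower were Ckb, which rose in B10, and G0s2, which fell in NOD. For all 23 the S+ arrays of the strains did not overlap once each was set against its strain's PreS mean, which describes the arrays that made the call and is no further evidence of it. Over all probesets, 8.54% had NOD above without overlap and 6.82% had NOD below.

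**Figure D1:**
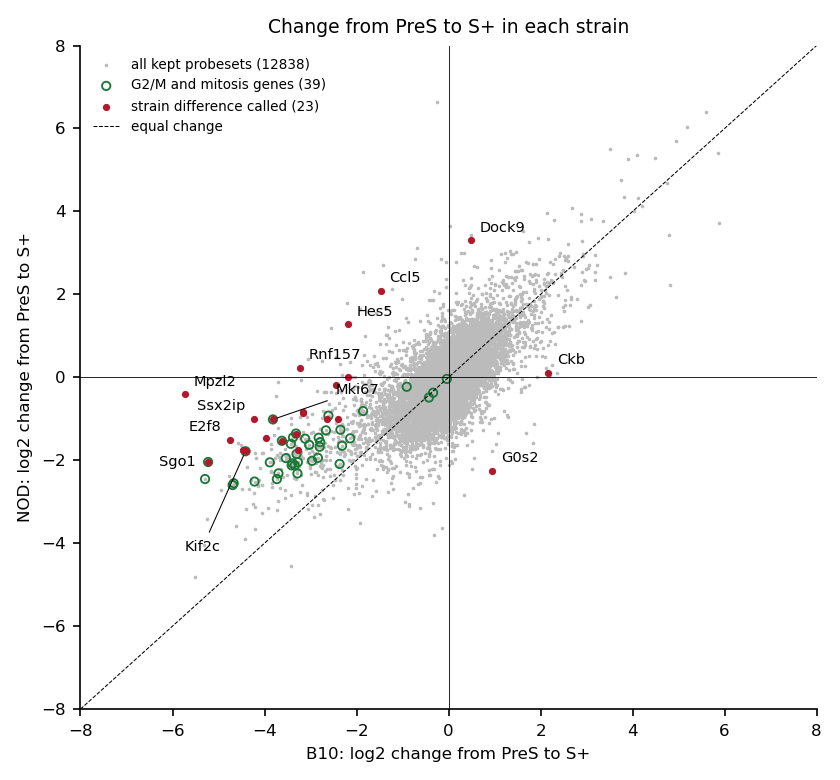
Log2 change from PreS to S+ in B10 (horizontal axis) and in NOD (vertical axis) for each of the 12838 kept probesets, from the fit of 18 arrays. Red points are the 23 probesets with a called strain difference, green rings the 39 genes of the G2/M and mitosis list, and the dashed line marks equal change. Of the 39 rings, 36 lie above the line.

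The count was sensitive to single arrays. It was 5 without B10 S+ replicate 2 and 154 without NOD S+ replicate 3, and 13 of the 18 arrays moved it by over 1.5 times when left out. Each of the 23 kept its direction in every alternative in which it was tested, and Kif2c, Rnf157, Dock9 and Mpzl2 were called whichever array was left out. With PreS arrays of TCR mice only, or of TCR insHEL mice only, none was called.

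Of the 42 genes of the G2/M and mitosis list, 39 were kept, and for the strain difference 4 were called higher and 0 lower: Kif2c, a kinesin that takes microtubules apart at the kinetochore, Sgo1, which protects the cohesion of sister chromatids, Mki67, the Ki-67 antigen of cycling cells, and Tpx2, which nucleates spindle microtubules and activates Aurora A. A second probeset of Cks2, a small subunit of the cyclin-dependent kinases, was called as well. The promoter windows of 4 of these genes, 250 bases before to 50 after the start site in RefSeq on GRCm38.p6, are shown because these genes carry called differences of the list. Capitals mark CCAAT and TTTGAA, the core of the cell cycle homology region, on either strand. The windows are Kif2c at chr4:117178723-117179022, Sgo1 at chr17:53689266-53689565 and Mki67 at chr7:135716330-135716629, all on the minus strand, and Cks2 at chr13:51644982-51645281 on the plus strand. A window for Tpx2 was not used here.
Kif2c: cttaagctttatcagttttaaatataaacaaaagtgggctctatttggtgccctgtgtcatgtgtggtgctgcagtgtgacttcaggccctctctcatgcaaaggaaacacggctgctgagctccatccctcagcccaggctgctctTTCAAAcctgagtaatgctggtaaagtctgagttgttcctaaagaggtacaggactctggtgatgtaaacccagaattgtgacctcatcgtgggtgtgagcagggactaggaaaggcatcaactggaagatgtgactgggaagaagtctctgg
Sgo1: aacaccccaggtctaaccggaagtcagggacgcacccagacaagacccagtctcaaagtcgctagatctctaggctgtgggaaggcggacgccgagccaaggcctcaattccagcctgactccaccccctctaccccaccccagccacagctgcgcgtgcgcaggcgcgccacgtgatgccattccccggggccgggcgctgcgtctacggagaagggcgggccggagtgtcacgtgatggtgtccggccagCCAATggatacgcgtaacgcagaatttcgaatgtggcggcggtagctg
Mki67: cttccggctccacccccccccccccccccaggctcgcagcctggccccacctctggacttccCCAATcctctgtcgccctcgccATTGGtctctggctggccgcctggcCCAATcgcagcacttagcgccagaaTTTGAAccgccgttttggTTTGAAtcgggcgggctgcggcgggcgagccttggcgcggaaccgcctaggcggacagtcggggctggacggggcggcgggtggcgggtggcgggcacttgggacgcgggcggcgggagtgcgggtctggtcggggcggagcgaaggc
Cks2: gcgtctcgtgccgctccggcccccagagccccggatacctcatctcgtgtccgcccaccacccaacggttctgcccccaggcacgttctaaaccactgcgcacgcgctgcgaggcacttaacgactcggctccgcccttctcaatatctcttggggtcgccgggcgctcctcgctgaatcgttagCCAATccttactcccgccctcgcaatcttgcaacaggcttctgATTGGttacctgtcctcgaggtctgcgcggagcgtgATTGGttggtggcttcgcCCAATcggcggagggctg

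The Mki67 window holds 3 CCAAT boxes, the first base of each at -188, -166 and -141 from the start site, and TTTGAA at -116 and -98. In the Cks2 window CCAAT occurs 4 times with no TTTGAA, the Kif2c window has 1 TTTGAA at -103 and no CCAAT, and in Sgo1 a single CCAAT begins at 3 after the start. Over the list, 37 of 42 genes had a window and 27 of their 39 windows (69.2%) held both motifs, against 6.95% of all 32851 windows. CCAAT, with or without TTTGAA, was counted in 82.1% of the list's windows (37.4% of all). TTTGAA, with or without CCAAT, was counted in 74.4% (17.9% of all). In the 35 windows of G1/S and DNA replication genes the shares were 54.3% for CCAAT, 8.57% for TTTGAA and 5.71% for both. These matches describe letters in a window, and the search was chosen after the values had been seen.

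Kif2c had signals of 788.2, 1330.15 and 1582.9 (lowest, median, highest) in B10 PreS and of 1032.9, 1172.2 and 1300.1 in NOD PreS. In S+ it was at 90.4, 43.2 and 46.6 in B10 and at 438.6, 263.1 and 367.1 in NOD. The PreS ranges overlapped, and every NOD S+ array lay above every B10 S+ array. Kif2c fell 21.3-fold in B10 (limma adjusted p = 1.0e-08) and 3.44-fold in NOD (adjusted p = 0.000233), a difference in change of 2.63 ± 0.38 (SE) on the log2 scale (adjusted p = 0.00593). Its 3 further kept probesets gave differences of 1.25 (limma adjusted p = 0.781), 0.03 and -0.0027, so the value rests on 1 probeset.

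Sgo1 signals were 287.6, 377.25 and 409.4 in B10 PreS (lowest, median, highest) and 338.5, 381.75 and 416.9 in NOD PreS. In S+ they were 7.2, 5.1 and 28.9 in B10 and 138.5, 69.2 and 111.6 in NOD, with no overlap. Sgo1 fell 37.4-fold in B10 (limma adjusted p = 5.1e-08) and 4.12-fold in NOD (adjusted p = 0.00154), a difference of 3.18 ± 0.55 (SE, log2; adjusted p = 0.0202). Its B10 S+ signals are under 32, where sizes are inexact, and over the alternatives tried the difference ran from 2.27 to 3.98.

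Mki67 ranged from 921.5 to 1900.5 in B10 PreS (median 1194.65) and from 575.5 to 2360.6 in NOD PreS (median 850.45). It was at 52.5, 110.5 and 128.7 in B10 S+ and at 581.7, 496.7 and 432 in NOD S+. The NOD S+ arrays stood clear of those of B10 and reached into the range of NOD PreS. Mki67 fell 14.1-fold in B10 (limma adjusted p = 9.6e-07), and in NOD its change was a 2.02-fold decrease that missed the threshold (adjusted p = 0.0729). The difference in change was 2.80 ± 0.54 (SE, log2; limma adjusted p = 0.0447).

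Tpx2 differed already before selection: its signals were 427.2, 507.65 and 606.9 (lowest, median, highest) in B10 PreS and 199.8, 229.55 and 330.7 in NOD PreS. In S+ they were 73.8, 35.1 and 54.2 in B10 and 113, 70.6 and 150.9 in NOD. The PreS arrays of the strains were apart, with NOD below, and the S+ arrays overlapped. At PreS the strain difference was -0.98 (limma adjusted p = 0.0113), at S+ it was 0.98 (adjusted p = 0.101), and the difference in change was 1.96 ± 0.37 (SE, log2; adjusted p = 0.0341). Cks2, by its called probeset, was at 172, 127 and 136 in B10 S+ and at 431.4, 331.7 and 457.6 in NOD S+, from PreS medians of 1401.35 and 1267.1. All 3 NOD S+ arrays were the higher, and the difference in change was 1.51 ± 0.28 (SE, log2; limma adjusted p = 0.0314), while the brighter Cks2 probeset gave 2.09 ± 0.44 (adjusted p = 0.0567).

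Other called genes with a role in the cell cycle lay outside that list and were grouped here after their values had been seen. Wee1, the kinase that holds Cdk1 inactive, was at 75.2, 36.7 and 41.5 in B10 S+ and at 174.5, 238.4 and 140.9 in NOD S+, from PreS medians of 216.55 and 159.2. The B10 S+ arrays lay below all others and those of NOD stayed near the NOD PreS signals. Wee1 fell 4.56-fold in B10 (limma adjusted p = 4.0e-06), with a log2 change of 0.01 in NOD (adjusted p = 0.990) and a difference of 2.19 ± 0.35 (SE; adjusted p = 0.00845). E2f8, a repressor of E2F targets, was at 85.5, 19.9 and 31.4 in B10 S+ and at 512, 318.2 and 175.9 in NOD S+, a difference in change of 3.26 ± 0.60 (SE, log2; limma adjusted p = 0.0317). The groups did not overlap, although the NOD arrays were widely spread. Trip13, an ATPase of the spindle checkpoint, differed by 2.10 ± 0.37 (limma adjusted p = 0.0264) and Dna2, a nuclease and helicase of DNA replication, by 1.63 ± 0.30 (adjusted p = 0.0314), both with a fall in each strain that was smaller in NOD.

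**Figure D2:**
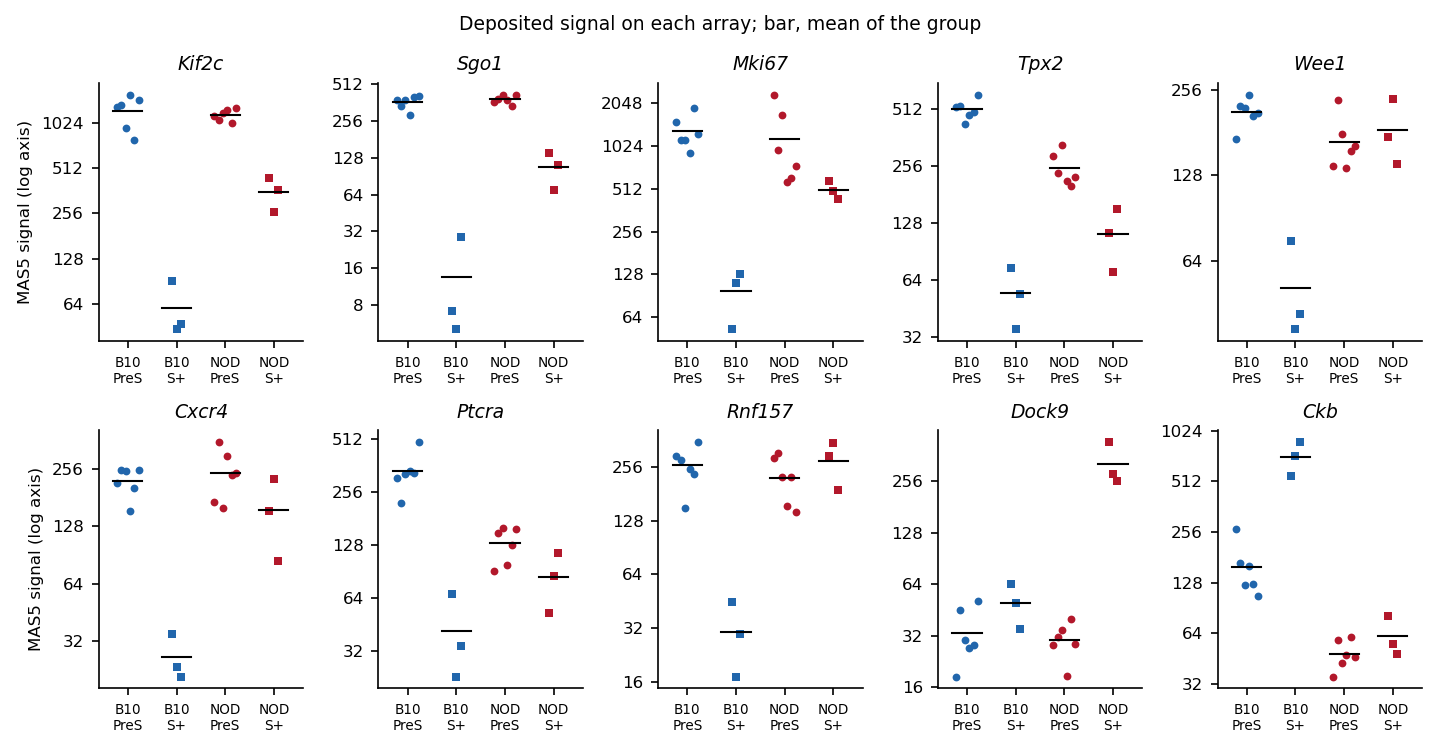
MAS5 signals (log axis) of 10 genes with a called strain difference on each of the 18 arrays, as circles for PreS and squares for S+, B10 in blue and NOD in red, with a bar at the mean of each group. For Kif2c, Sgo1, Mki67 and Cxcr4 the B10 S+ squares lie far below the others, for Dock9 the NOD S+ squares lie above, and for Ckb the B10 S+ squares lie above.

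Of the 39 kept genes of the G2/M and mitosis list, 35 fell in B10 and 33 fell in NOD, against 7.24% and 10.7% of all probesets. The list's median log2 changes were -3.28 and -1.68. The difference in change was above 0 in 36 of 39 and had a median of 1.37 (range -0.06 to 3.18), against -0.01 over all probesets. At an unadjusted p under 0.05, 29 genes were higher and 0 lower, against 4.01% and 3.25% of all probesets. The S+ arrays of the strains did not overlap for 29 genes, all with NOD above (74.4%, against 8.54% of all probesets). Median changes over the list were -2.84, -3.59 and -3.07 on the B10 S+ arrays and -1.59, -2.19 and -1.58 on the NOD S+ arrays, so that each NOD array lay above each B10 array. At PreS 0 genes of the list were higher and 2 lower in NOD (Tpx2 and the condensin subunit Ncapd2), against 1.27% and 1.88% of all probesets. At S+ 17 were higher and 0 lower, against 1.4% and 1.1% of all probesets. These stage counts share their arrays with the contrast and are a description. The median difference stayed between 1.12 and 1.74 over all alternatives tried.

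Just outside the threshold was Ect2, which activates RhoA at cytokinesis, at 1.93 ± 0.40 (SE, log2; limma adjusted p = 0.0567). The condensin subunit Ncapg had 2.84 ± 0.80 (limma adjusted p = 0.212), with a B10 S+ mean signal of 9.5. Top2a, the topoisomerase that untangles chromosomes, gave 1.63 ± 0.39 (limma adjusted p = 0.117), Cdk1 gave 1.83 ± 0.51 (adjusted p = 0.206) and the checkpoint kinase Bub1 gave 2.10 ± 0.53 (adjusted p = 0.156). Each of these fell in both strains. The 3 members with a difference below 0 were Pttg1, Kif23 and Smc4, the last with a log2 change of -0.04 in both strains.

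Of 36 genes listed for G1/S and DNA replication 32 were kept, 30 fell in B10 and 25 fell in NOD, and the median log2 changes were -2.34 and -1.58. None was called for the strain difference by limma. At an unadjusted p under 0.05, 16 were higher and 0 lower, against 4.01% and 3.25% of all probesets, with a median of 0.98 over the list. For 12 the S+ arrays of NOD all lay above those of B10 (37.5%, against 8.54% of all probesets). The shares of all probesets that fell were 7.24% in B10 and 10.7% in NOD. Cdc6, which loads the replicative helicase, came closest with 2.38 ± 0.50 (SE, log2; limma adjusted p = 0.0572), and Rrm2, the inducible subunit of ribonucleotide reductase, had 2.47 ± 0.56 (adjusted p = 0.0923). Rfc3, a subunit of the clamp loader, had a log2 change of -1.92 in B10 (limma adjusted p = 0.0719) and fell by 3.51 in NOD (adjusted p = 0.00159), a difference of -1.59 ± 0.95 (adjusted p = 0.798). Pcna, the sliding clamp, fell by 1.26 in B10 and by 1.18 in NOD, a difference of 0.07 ± 0.31 (adjusted p = 0.989). In these sorted pools a smaller share of cycling cells and less mRNA per cycling cell cannot be told apart.

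Genes of the pre-selection double positive cell were the next group. Ptcra, the chain that pairs with TCR beta before the alpha chain is made, had signals of 221, 325.7 and 492.8 (lowest, median, highest) in B10 PreS and of 91.1, 138.15 and 159.6 in NOD PreS. In S+ it was at 67.1, 22.8 and 34.1 in B10 and at 52.3, 85.1 and 115.1 in NOD. The PreS arrays were apart, with NOD lower, and the S+ arrays overlapped. Ptcra fell 9.01-fold in B10 (limma adjusted p = 1.4e-06) and its NOD change was a 1.82-fold decrease (adjusted p = 0.0735). The difference in change was 2.31 ± 0.46 (SE, log2; limma adjusted p = 0.0497), made of -1.28 at PreS (adjusted p = 0.00856) and 1.03 at S+ (adjusted p = 0.186).

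Cxcr4, the receptor for CXCL12 that holds immature thymocytes in the cortex, had overlapping signals at PreS, 153.8, 233 and 254.1 in B10 and 159.4, 240.6 and 354.5 in NOD (lowest, median, highest). In S+ it was at 35, 23.4 and 20.8 in B10 and at 154.5, 227.6 and 83.7 in NOD. The NOD S+ arrays were all higher than those of B10, and 1 of them lay within the NOD PreS range. Cxcr4 fell 8.90-fold in B10 (limma adjusted p = 1.0e-06), against a 1.79-fold decrease in NOD (adjusted p = 0.0750), and the difference in change was 2.32 ± 0.45 (SE, log2; adjusted p = 0.0447).

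Over the pre-selection list, 16 of 19 genes were kept and Ptcra and Cxcr4 were the 2 called. Of these 16, 10 fell in B10 and 6 in NOD, against 7.24% and 10.7% of all probesets. The list's median log2 changes were -2.02 and -0.90, with a median difference of 0.48. At an unadjusted p under 0.05, 6 were higher and 0 lower, against 4.01% and 3.25% of all probesets. Rag1, which cuts DNA for receptor rearrangement, had S+ signals of 169.8, 66 and 121.9 in B10 and of 362.6, 224.9 and 456 in NOD, with no overlap. Its difference in change was 1.39 ± 0.43 (SE, log2; limma adjusted p = 0.300), and its strain difference at S+ was 1.60 (adjusted p = 0.0150). Rag2, its partner, gave 2.20 ± 0.66 (limma adjusted p = 0.264), Arpp21, a phosphoprotein of double positive cells, 1.60 ± 0.38 (adjusted p = 0.109) and Endou 1.52 ± 0.37 (adjusted p = 0.130). With hybridization day as a fixed block the list's median was 0.04.

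Among the genes that mark the S+ stage none was called for the strain difference by limma. Ccr7, which guides selected cells to the medulla, was at 691.2, 966.4 and 885.8 in B10 S+ and at 386.7, 401 and 819.7 in NOD S+, from PreS signals of at most 51.7 and 28.6. It rose 26.9-fold in B10 and 25.9-fold in NOD, and the difference in change was -0.05 ± 0.59 (SE, log2; limma adjusted p = 0.995). Cd8a and Cd4 encode proteins used in the sort: Cd8a fell 8.32-fold and 9.08-fold, and Cd4 rose 3.46-fold and 2.28-fold, in B10 and NOD. Their differences in change were -0.13 ± 0.42 (limma adjusted p = 0.985) and -0.60 ± 0.36 (adjusted p = 0.793). Il7r, the interleukin 7 receptor of cells after selection, was at 504.7, 417.3 and 591.4 in B10 S+ and at 1110.8, 788.8 and 565.4 in NOD S+, which overlapped. It rose 4.92-fold in B10 and 13.8-fold in NOD, a difference of 1.49 ± 0.50 (SE, log2; limma adjusted p = 0.376).

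Of 22 genes of single positive maturation 21 were kept, 14 rose in B10 and 12 rose in NOD, and 0 were called for the strain difference by limma. At an unadjusted p under 0.05, 1 was higher and 3 were lower, against 4.01% and 3.25% of all probesets. The shares of all probesets that rose were 4.88% in B10 and 7.42% in NOD. The list's median log2 changes were 1.77 in B10 and 1.47 in NOD. Gimap3, a GTPase of lymphocyte survival, was nearest to the threshold at -1.39 (limma adjusted p = 0.0567), having risen by 2.62 in B10 and by 1.23 in NOD. S1pr1, the receptor for exit from the thymus, rose 4.02-fold and 4.28-fold.

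Outside these groups the rule for named genes gave Rnf157, Dock9, Ccl5, Hes5 and Ckb. Rnf157, a ubiquitin ligase, was at 150.7, 265.35 and 352.6 (lowest, median, highest) in B10 PreS and at 143.6, 223.75 and 304.4 in NOD PreS. In S+ it was at 45, 17.1 and 29.6 in B10 and at 295.1, 346 and 189.1 in NOD. The B10 S+ arrays lay below all others. Rnf157 fell 9.32-fold in B10 (limma adjusted p = 9.8e-07), with a 1.18-fold increase in NOD (adjusted p = 0.646), a difference of 3.46 ± 0.46 (SE, log2; adjusted p = 0.00303).

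Dock9, an exchange factor for the GTPase Cdc42, showed the converse pattern. It was at 18.4, 29.1 and 50.9 in B10 PreS and at 18.5, 29.85 and 40.1 in NOD PreS (lowest, median, highest). In S+ it was at 64.2, 49.8 and 35.1 in B10 and at 434.5, 281.7 and 256.5 in NOD, the arrays of NOD being far above all others. Dock9 rose 9.84-fold in NOD (limma adjusted p = 2.0e-06), while its B10 change was a 1.41-fold increase (adjusted p = 0.366), and the difference was 2.81 ± 0.43 (SE, log2; adjusted p = 0.00786). Ccl5, a chemokine of cytotoxic and memory T cells, was at 9.6, 11.7 and 40.7 in B10 S+ and at 347, 129.3 and 85.6 in NOD S+. The arrays did not overlap, and Ccl5 rose 4.26-fold in NOD (limma adjusted p = 0.00750), with a difference in change of 3.56 ± 0.71 (SE, log2; adjusted p = 0.0497). Hes5, a target of Notch signalling, was at 4.2, 6.9 and 6.8 in B10 S+ and at 121.5, 159.9 and 75.9 in NOD S+. Its PreS signals ran from 11.3 to 53.6 in B10 and from 14.9 to 97.9 in NOD. The difference in change was 3.46 ± 0.69 (SE, log2, limma adjusted p = 0.0497), and over the alternatives tried it ran from 2.05 to 3.76. Hes5 passed the signal filter only through NOD S+, the group where it was high. The B10 S+ means of Ccl5 and Hes5 were under 32, where sizes are inexact.

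Ckb, the brain-type creatine kinase, was called lower. It was at 107.1, 143.9 and 265.1 in B10 PreS and at 35.2, 46.65 and 60.5 in NOD PreS (lowest, median, highest). In S+ it was at 555.4, 723.8 and 880.6 in B10 and at 80.9, 54.9 and 47.9 in NOD. The strains did not overlap at either stage, with NOD below. Ckb rose 4.50-fold in B10 (limma adjusted p = 1.1e-05), against a 1.08-fold increase in NOD (adjusted p = 0.804), a difference in change of -2.06 ± 0.38 (SE, log2; adjusted p = 0.0314). G0s2, an inhibitor of the lipase ATGL, was at 45.7, 74.6 and 129.9 in B10 S+ and at 13.7, 4 and 3.4 in NOD S+. The difference in change was -3.20 ± 0.64 (SE, log2; limma adjusted p = 0.0497). Its NOD means were under 32 at both stages, where sizes are inexact, and with a floor of 16 the difference was -1.64 (limma adjusted p = 0.215). G0s2 passed the signal filter only through B10 S+ and B10 S-, groups where it was high.

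The remaining called probesets were mostly dim. Mpzl2, an adhesion molecule of the thymic epithelium and thymocytes, had the largest difference, 5.32 ± 0.66 (SE, log2; limma adjusted p = 0.00257), between B10 S+ signals of 3.1, 0.4 and 0.9 and NOD S+ signals of 56.5, 29.9 and 16.3. With a floor of 16 on the signals, that difference was the least of its alternatives, 1.40. Pkig, an inhibitor of protein kinase A, Ssx2ip, a centrosome protein, and Pask, a PAS domain kinase, differed by 2.73, 3.25 and 2.50, and in each the B10 S+ mean was under 6. With the floor of 16 these differences were 0.67, 0.85 and 0.99, and none of them was called by limma. Arsi, a sulphatase, differed by 2.27 ± 0.35 (SE, log2; limma adjusted p = 0.00786), with NOD already lower at PreS by 2.10 (adjusted p = 3.4e-06). Rapgef3, an exchange factor activated by cyclic AMP, differed by 1.39 ± 0.28 (adjusted p = 0.0497). Of the 23, 9 had a mean signal under 32 in B10 S+, 5 had a mean under 100 in all 4 groups, and 7 had an adjusted p of 0.04 or more.

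At PreS, 404 probesets differed between the strains (3.15% of those tested), 163 higher (1.27%) and 241 lower (1.88%) in NOD, and 4 of the 23 did: Ptcra, Tpx2, Arsi and Ckb, all lower in NOD. At S+, 321 differed (2.5%), 180 higher (1.4%) and 141 lower (1.1%) in NOD, and 19 of the 23 did, 17 with NOD above and 2 with NOD below. These counts share their arrays with the contrast that chose the genes and are given as a description.

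**Figure D3:**
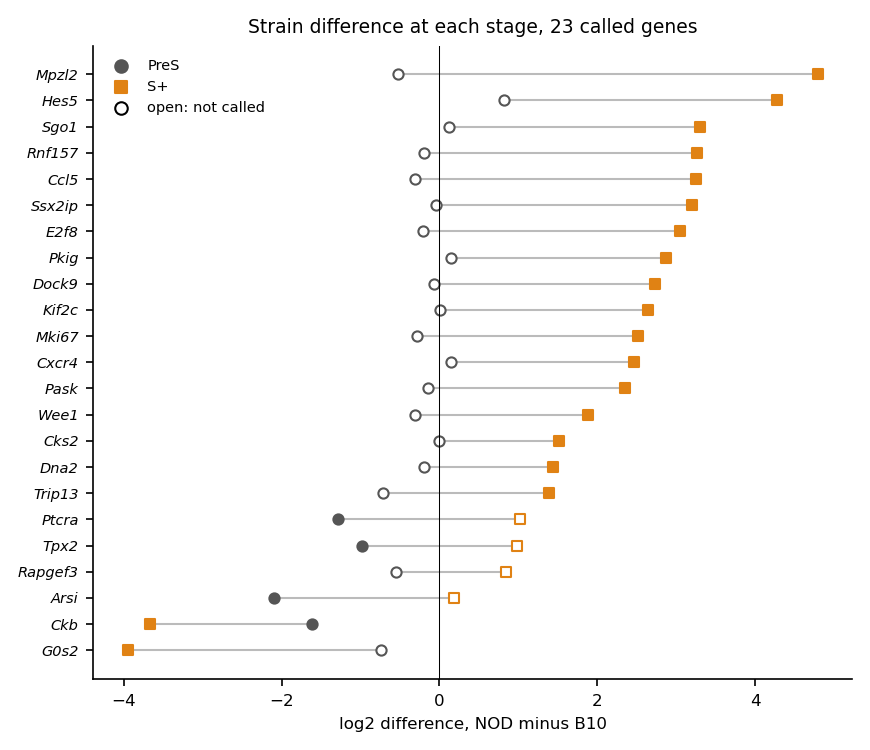
Log2 difference between the strains (NOD minus B10) at PreS (grey circles) and at S+ (orange squares) for the 23 called genes, with filled symbols where the limma adjusted p was under 0.05. For 17 genes the filled S+ square lies to the right of 0, and for Ptcra, Tpx2 and Arsi the filled symbol is that of PreS.

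None of the other pathway lists held a called gene by limma. For comparison, 4.01% of all probesets were higher and 3.25% lower at an unadjusted p under 0.05, and 4.88% rose in B10 and 7.42% in NOD. T cell receptor signalling and its targets were as follows: the TCR complex and proximal signalling list (17 kept) had a median difference of -0.38 with 0 higher and 2 lower at an unadjusted p under 0.05, the early genes that the receptor induces (19 kept) had a median of 0.24 with 0 higher and 1 lower, and 7 of these rose in each strain. Of 16 genes induced by strong agonists, 9 rose in B10 and 10 in NOD, with median log2 changes of 1.41 and 1.44. Cd3d, the delta chain of CD3, had the largest difference of its list, -1.35 (limma adjusted p = 0.212). Of 7 regulatory T cell genes, 4 rose in each strain, and Il2ra and Nrp1 fell in B10 by 2.29 and 2.33 with changes of -0.50 and -0.35 in NOD, differences of 1.80 (limma adjusted p = 0.0577) and 1.98 (adjusted p = 0.0894).

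Interferon-induced genes (36 kept) rose in B10 in 18 cases and in NOD in 13, against 4.88% and 7.42% of all probesets. Their median difference was -0.11. MHC class I antigen processing (12 kept) had a median difference of -0.60, with 0 higher and 4 lower at an unadjusted p under 0.05. Among these, H2-K1, a classical class I heavy chain, rose by 2.30 in B10 and changed by 1.08 in NOD (limma adjusted p of the difference 0.655). Ribosomal proteins (46 kept) had a median of -0.35 with 0 higher and 8 lower at that level, and the respiratory chain (74 kept) one of -0.23 with 0 higher and 5 lower, where 18 genes fell in NOD and 0 in B10. Over all probesets, 3.25% were lower at that level, and 10.7% fell in NOD and 7.24% in B10. With PreS arrays of TCR mice only, the medians of these last lists were 0.09 and 0.12. The lists of CD4 and CD8 lineage choice, NF-kB, cytokine receptors, the BCL2 family and caspases, cholesterol synthesis, glycolysis, endoplasmic reticulum chaperones and heat shock proteins had medians between -0.12 and 0.25, with 0 genes called.

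**Figure D4:**
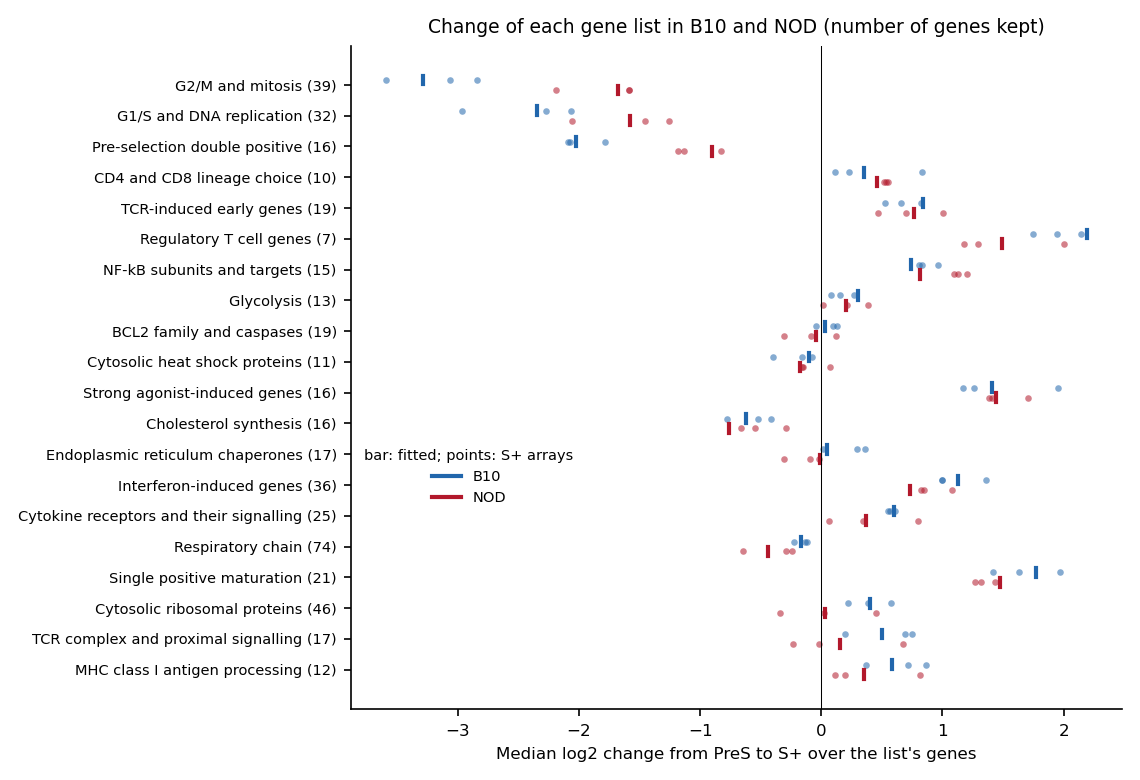
Median log2 change from PreS to S+ over the kept genes of each pathway list, with bars for the fitted change in B10 (blue) and NOD (red) and a point for each S+ array set against its strain's PreS mean. The lists are ordered by the median of the genes' strain differences, and the G2/M and mitosis list at the top shows B10 points from -3.59 to -2.84 and NOD points from -2.19 to -1.58.

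Some markers of other cells moved with the contrast. Of 12 markers of macrophages and dendritic cells 9 were kept, and none was called for the strain difference by limma. At an unadjusted p under 0.05, 5 of the 9 were higher, against 4.01% of all probesets. The median difference of these markers was 1.28, against -0.01 over all probesets. The summed signal of the 12 was 2958.7 to 4338 on the NOD S+ arrays, above all other groups. It ran from 760.4 to 1781.5 in B10 S+, from 1077.2 to 2940.2 in B10 PreS and from 1061.1 to 2323.2 in NOD PreS. In NOD S+ the mean of Csf1r, the macrophage growth factor receptor, was 425.5 against 116.9 in B10 S+, and that of the complement chain C1qb was 284.7 against 56.5. The means of Itgam, C1qa and Fcer1g were at most 24.2 in any group. B cell markers (5 kept) had a median difference of 1.14, and none was called by limma. At an unadjusted p under 0.05, 4 of the 5 were higher, against 4.01% of all probesets. Summed signals of the 7 B cell markers on the array were 2010.4 to 2461.1 in B10 S+ and 2016.3 to 3050.5 in NOD S+. At PreS the sums were 3228.2 to 4651.6 in B10 and 3546.8 to 8173.9 in NOD. Ighm made up most of each sum, with means of 2032.7 in B10 S+ and 2254.1 in NOD S+. Its difference in change was -0.14, while the other 4 kept B cell markers had differences above 0. Natural killer and cytotoxic markers (3 kept) had a median of 0.50, natural killer T and gamma delta T cell markers (2 kept) one of 1.57 and thymic epithelium (3 kept) one of 0.32. The 1 erythroid marker kept, Epor, had 0.05, and the 8 thymocyte markers a median of -0.25. The part of other cells in the strain difference was not tested.

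The other quantities that moved with it were RNA length and day. NOD S+ replicates 1 and 2 and B10 S+ replicate 1 had the highest 3' to 5' ratios of the S+ arrays. With the ratio as a covariate 45 probesets were called, all 23 among them, and without these 3 arrays 37 were called, 13 of the 23 among them, both being alternatives chosen after seeing the data. The latter leaves NOD S+ with replicate 3 alone, the array that stood apart, which is assumed to vary like the other groups. The 18 arrays were hybridized on 8 days, 15 of them on a day with another array, and no day held S+ and PreS arrays of both strains. Within a day, with 1 array against 1, the median change of the G2/M and mitosis list was -3.16 and -3.26 on 2 days of B10 and -1.97 on 1 day of NOD, and that of Kif2c was -4.04 and -5.12 against -2.06. With day as a fixed block, which leaves 7 residual degrees of freedom in place of 14, 2 probesets were called, and with day as a random block 21.

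**Figure D5:**
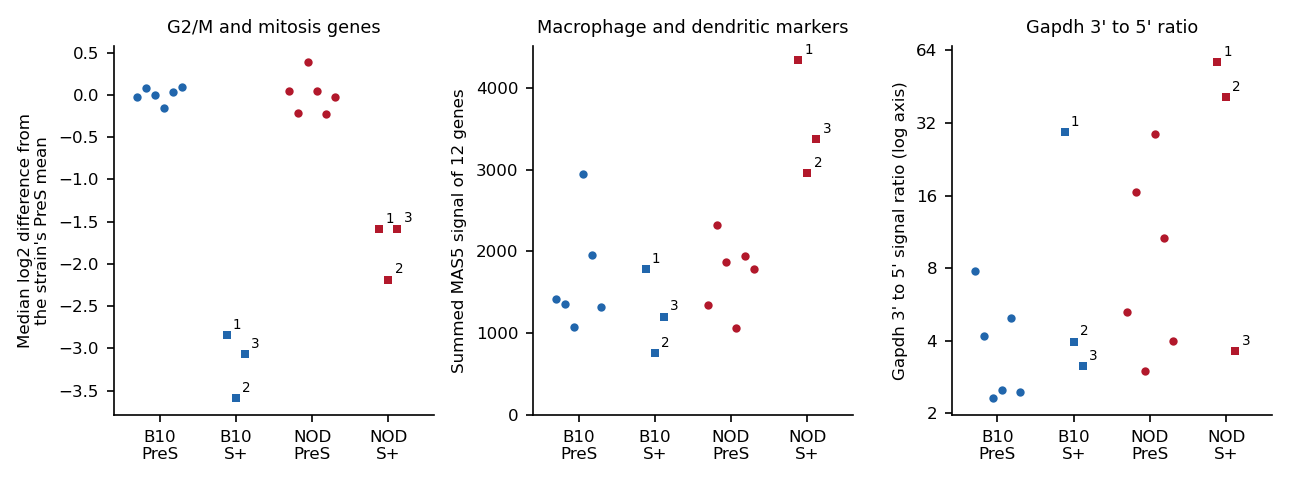
Per-array values for the 18 arrays in 3 panels: the median log2 difference of the G2/M and mitosis genes from the strain's PreS mean, the summed MAS5 signal of the 12 macrophage and dendritic cell markers, and the Gapdh 3' to 5' signal ratio on a log axis. Circles are PreS and squares S+, numbered by replicate, B10 in blue and NOD in red. The NOD S+ arrays lie above those of B10 in the first and second panels, and NOD S+ replicates 1 and 2 have the highest ratios.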

How the data were processed

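The authors deposited MAS5 signals (array intensity on a linear scale, scaled by them to a trimmed mean of 150) for 22690 probesets of 24 arrays. A run file per array gave its hybridization day (unit: other, as deposited). RNA went through 2 rounds of amplification, which can favour 3' ends. Present calls and probe-level data were not used here. From the signals, 64 control probesets were dropped and 33 zeros replaced by 0.1. After log2, each array was brought to mean 0 and variance 1, following the study's methods, and the result was re-expressed in log2 units with 1 mean and SD for all arrays. A fit of 18 arrays was made with limma 3.58.1 (R 4.3.3; lmFit, eBayes, no covariates), with Benjamini-Hochberg adjustment over 12838 probesets and a threshold of 0.05. The scripts were tested on simulated data. Signals are not counts, so precision is limited by the number of arrays. Gene names came from the platform annotation, updated through RefSeq: 20380 probesets had 1 symbol, 691 several and 1555 none. A gene was represented by its kept probeset of highest mean log2 signal.

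Genes were named by rule: the 10 largest differences per direction among called genes with a group mean of at least 100 and S+ arrays apart, up to 4 called members of a list, and Cd4, Cd8a, Cd69, Ccr7, Rag1 and Il7r. The rule named 12 of the 23, and the other 11 were described after their values were seen. The arrays, gene lists and naming rule were chosen with earlier results of these data known. Replicate numbers were not used to pair the arrays in the main fit. Deviations of arrays with the same number had a mean correlation of 0.13 (-0.30 to 0.63). For arrays with other numbers it was -0.06 (-0.50 to 0.41), so a shared effect of the number is not excluded. Alternatives were other normalizations, floors and filters, other sample sets, array weights, blocks for replicate number and day, and each array left out.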

Additional observations from a re-analysis of the deposited data

Results flagged for a closer look

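The strain difference in the change from PreS to S+ is itself a difference between groups, and all 23 probesets that passed limma's adjusted threshold are therefore listed. On the log2 scale, the NOD change minus the B10 change was 5.32 for Mpzl2, 3.56 for Ccl5, 3.46 for Hes5, 3.46 for Rnf157, 3.26 for E2f8, 3.25 for Ssx2ip and 3.18 for Sgo1. It was 2.81 for Dock9, 2.80 for Mki67, 2.73 for Pkig, 2.63 for Kif2c, 2.50 for Pask, 2.32 for Cxcr4, 2.31 for Ptcra and 2.27 for Arsi. It was 2.19 for Wee1, 2.10 for Trip13, 1.96 for Tpx2, 1.63 for Dna2, 1.51 for Cks2 and 1.39 for Rapgef3. The 2 below 0 were Ckb at -2.06 and G0s2 at -3.20.

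The signals of 28 genes and the medians of 27 gene lists were each examined on the 6 PreS arrays of a strain, 110 groups in all. In 4 of these an array was set apart by more of the group's range than Dixon's critical value. Chance alone does this in about 1 group in 20. All 4 were list medians, so the share among list medians alone was higher than that among the 110. NOD PreS TCR insHEL replicate 1 was lowest for the TCR complex and proximal signalling list (0.635 of the range), for cytokine receptors and their signalling (0.639) and for endoplasmic reticulum chaperones (0.678). B10 PreS TCR insHEL replicate 1 was lowest for cytosolic heat shock proteins (0.630).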

How the results depend on the processing

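The direction of all 23 called genes was the same in every alternative in which they were tested, and their number was not. Against 23, the count was 47 with a floor of 16 (39 higher, 8 lower), 10 without a filter, 376 with array weights (158 higher, 218 lower), 46 with all 24 arrays in 1 fit, 0 with PreS arrays of TCR mice only, 0 with those of TCR insHEL mice only, 2 with day as a fixed block, and, chosen after seeing the data, 45 with the 3' to 5' ratio as a covariate and 37 without the 3 S+ arrays of highest ratio, where NOD S+ replicate 3 is left alone and is assumed to vary like the other groups. Leaving out each array gave 5 to 154. It was 154 without NOD S+ replicate 3, 66 without B10 S+ replicate 1, 5 without B10 S+ replicate 2, 14 without B10 S+ replicate 3, and 12 and 15 without NOD S+ replicates 1 and 2. It was 14 and 10 without B10 PreS TCR replicates 1 and 2, 12 without either B10 PreS TCR insHEL replicate 2 or 3, 15 without NOD PreS TCR replicate 2, and 11 and 13 without NOD PreS TCR insHEL replicates 2 and 3. Of the 23 genes, 4 were still called without B10 S+ replicate 2 and all 23 without NOD S+ replicate 3. The cause of these moves was not tested. The sign turned for 1 further probeset of Kif2c (-0.0027).

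For the change in B10 (1557), PreS arrays of TCR mice only gave 950, those of TCR insHEL mice 921 and day as a fixed block 807, with 1014 (without B10 S+ replicate 2) to 1783 on leaving out an array. For NOD (2325), array weights gave 4117, PreS arrays of TCR mice 758, day as a fixed block 505 and the 3 S+ arrays left out 300, with 1039 (without NOD S+ replicate 2; 1098 without replicate 1) to 3223. At PreS (404) these were 607 with array weights, 90 and 137 with PreS arrays of TCR and of TCR insHEL mice only, 160 with day as a fixed block, and 287 to 465 on leaving out an array. At S+ (321) they were 2697, 211, 173 and 53 in the same order, 104 without the 3 S+ arrays, and 147 (without B10 S+ replicate 2) to 1692 (without NOD S+ replicate 3), with 201 without B10 S+ replicate 3 and 164 and 204 without NOD S+ replicates 1 and 2. Replicate numbers were not used to pair the arrays in the main fit. With the replicate block the counts were 26, 1793, 2787, 481 and 472 in the order given here, each above that of the main fit. Signals under 32 limit the size of the downward change of 9 of the 23 genes in B10 and that of G0s2 in NOD. Ccl5, Cxcr4 and Rnf157 are among the 9, and the change of Ccl5 in B10 was not called.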

Other observations

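The 6 S- arrays, of cells of the S+ phenotype from TCR insHEL mice of each strain, took no part in the contrast, and the 23 genes were looked up in them after the values above had been seen. In a limma fit of all 24 arrays, 298 probesets differed between the strains at S- (2.32% of 12838). Of these, 150 were higher (1.17%) and 148 lower (1.15%) in NOD at S-. Of the 23 genes, 3 were higher in NOD there: Rnf157 by 2.12 (adjusted p = 0.00116), Dock9 by 1.95 (limma adjusted p = 0.00257) and Cxcr4 by 1.51 (limma adjusted p = 0.0253). Dock9 was at 36.4, 38.6 and 59.4 in B10 S- and at 111.6, 189.9 and 230 in NOD S-, without overlap. The 3 lower in NOD were Ckb by a log2 value of -3.27 (limma adjusted p = 2.1e-07), G0s2 by -1.93 (adjusted p = 0.0322) and Cks2 by -0.84 (adjusted p = 0.0487).

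Mki67 was at 671.1, 734.3 and 744 in B10 S- and at 294.2, 309.8 and 427.9 in NOD S-, so that here every B10 array was the higher (-1.12, limma adjusted p = 0.170). Kif2c was at 285.8 to 597.8 in B10 S- and at 187.5 to 275.1 in NOD S- (-0.95, limma adjusted p = 0.126). Over the G2/M and mitosis list the median strain difference was -0.58 at S- and 1.32 at S+. At S-, 0 of its 39 kept genes were called higher and 1 lower, against 1.17% and 1.15% of all probesets. The markers of macrophages and dendritic cells had a median strain difference of 0.02 at S- and of 1.38 at S+. Whether the strain difference itself differed between S- and S+ was not tested.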
